A study of Mus musculus with 36 samples.

Results

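The genes described here are Trp53, which encodes the transcription factor p53, and 9 genes known as its transcriptional targets: Mdm2, Cdkn1a, Ccng1, Plk2, Bax, Bbc3, Phlda3, Trp53inp1 and Trp53i11. They were found in the deposited count table by the Ensembl identifier that maps to each symbol, and they are 10 of its 49585 gene identifiers. All 10 passed the filter on low counts that left 20009 genes for testing. RNA was sequenced from neoplastic cells of 36 mouse lung tumours, sorted by their EGFP signal. The fusion oncogene EML4-ALK, as variant 1 or variant 3, drove the tumours, which carried a control guide (sgNeo, Setd2-proficient) or a guide against the histone H3 lysine 36 methyltransferase gene Setd2 (sgSetd2, Setd2-deficient). The 4 groups were Variant 1 sgNeo, Variant 1 sgSetd2, Variant 3 sgNeo and Variant 3 sgSetd2, and each held 9 tumours, 3 from each of 3 title codes. All 4 groups share the ALK fusion and the EGFP mark. What a code stands for is not stated in the labels, and strain, age and time of collection are not given there.

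p53 is a DNA-binding protein that is held at a low level by the ubiquitin ligase Mdm2 and accumulates after DNA damage or oncogene activity. It then raises the transcription of genes that stop the cell cycle, such as the cyclin-dependent kinase inhibitor Cdkn1a (p21), of genes that promote cell death, such as Bax and Bbc3 (Puma), and of Mdm2 itself, which closes a feedback loop. p53 is controlled mainly through its protein, which RNA counts do not measure. In lung tumours of mouse models, loss of p53 is known for allowing progression to higher grades.

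Levels are given as TMM-normalised CPM, counts scaled by library size. The value of a code was computed from the summed counts of its 3 tumours, so that a tumour sequenced more deeply weighs more in it, and group values are means ± SD over 3 codes. Libraries held 17.9 M to 137.2 M counts per tumour and 91.5 M to 212.1 M per code. Each log2 fold change, standard error and adjusted p-value comes from edgeR's quasi-likelihood test on the 12 codes with Benjamini-Hochberg adjustment over 20009 genes, and a gene was called where the adjusted p was under 0.05. These p-values measure the spread between codes. Setd2, the targeted gene, stood at 67.7 ± 12.8 CPM in Variant 1 sgNeo and 37.4 ± 2.5 CPM in Variant 1 sgSetd2 (adjusted p = 0.0825), and at 54.6 ± 10.3 and 45.7 ± 13.2 CPM in Variant 3 (adjusted p = 0.647). Of 48 fits with 1 code or tumour left out, 1 passed for Setd2 in Variant 1 (without CE456 of Variant 3, adjusted p = 0.047). The highest adjusted p among them was 0.292. Read counts do not show whether the guide edited the gene. Alveolar type 2 markers were high in all 4 groups, with summed levels of 27770 to 215000 CPM per tumour. Of the 8 macrophage markers, Adgre1, Marco, Siglecf, C1qa and C1qb had a median of 0, as did Ptprc, Cd3e, Nkg7 and S100a9 of the 6 leukocyte markers, Cdh5 and Kdr of the 5 endothelial markers and Pdgfra and Lum of the 6 fibroblast markers. Other markers of these cells were above 0: the macrophage gene Cd68 had a median of 7.72 CPM (highest tumour 17.7 CPM), and of the fibroblast genes Dcn had a median of 8.0 CPM (highest 88.2 CPM) and Col1a1 a median of 1.81 CPM (highest 105.7 CPM).

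The promoters of several of these genes carry the decamer to which a pair of p53 subunits binds, called the p53 half-site. In the 250 bases before the annotated start, it was found in 5 of the 12 RefSeq windows (GRCm38.p6) of these genes, and in 7.13% of all 32851 RefSeq windows of that length. The 12 windows belong to 9 of the genes, and the 5 with a match to 5 of them. The half-site pattern is the same on both strands, so 1 search covers both. The windows of Trp53 and Cdkn1a are shown in full because they hold half-sites near the start, and those of Plk2 and Trp53i11 because these genes changed together with Trp53. Capitals mark the half-site, which lies 75 bases before the start in Trp53. In Cdkn1a half-sites begin 73 and 51 bases before the more upstream of its annotated starts.
Trp53, chr11:69580109-69580358, plus strand: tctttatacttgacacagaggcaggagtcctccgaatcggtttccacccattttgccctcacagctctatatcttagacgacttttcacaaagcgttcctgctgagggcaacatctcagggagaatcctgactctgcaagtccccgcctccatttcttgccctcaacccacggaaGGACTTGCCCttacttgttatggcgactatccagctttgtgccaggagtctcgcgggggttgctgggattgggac
Cdkn1a, chr17:29090729-29090978, plus strand: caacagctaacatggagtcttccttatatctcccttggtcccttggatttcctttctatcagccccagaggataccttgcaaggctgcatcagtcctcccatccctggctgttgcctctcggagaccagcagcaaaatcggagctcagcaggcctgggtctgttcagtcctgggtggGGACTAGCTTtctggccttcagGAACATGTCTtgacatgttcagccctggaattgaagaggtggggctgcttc
Plk2, chr13:110394794-110395043, plus strand: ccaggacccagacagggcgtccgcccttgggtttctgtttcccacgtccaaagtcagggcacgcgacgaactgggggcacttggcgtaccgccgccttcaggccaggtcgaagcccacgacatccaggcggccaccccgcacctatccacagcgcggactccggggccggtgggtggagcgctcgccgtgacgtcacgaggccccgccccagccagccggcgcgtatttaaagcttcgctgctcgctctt
Trp53i11, chr2:93187298-93187547, plus strand: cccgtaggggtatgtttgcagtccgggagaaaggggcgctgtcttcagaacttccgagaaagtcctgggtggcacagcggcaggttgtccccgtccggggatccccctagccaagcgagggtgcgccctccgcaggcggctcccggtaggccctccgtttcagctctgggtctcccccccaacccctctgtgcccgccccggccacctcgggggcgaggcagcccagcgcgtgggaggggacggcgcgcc
In Mdm2, Ccng1 and Bax the half-site lay farther from the start, and a short stretch around it is shown, read on the minus strand from which these genes are transcribed.
Mdm2, chr10:117710925-117710954, 186 bases before the start: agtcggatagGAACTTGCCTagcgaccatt
Ccng1, chr11:40755452-40755481, 185 bases before the start: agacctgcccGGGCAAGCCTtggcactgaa
Bax, chr7:45467080-45467109, 201 bases before the start: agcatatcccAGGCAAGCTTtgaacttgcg
No half-site was found in the windows of Plk2, Trp53i11, Phlda3 and Bbc3. None was found either in the second Cdkn1a window (chr17:29093519-29093768), which belongs to a start farther downstream. A match is a string of letters and not evidence of binding, and sites outside these windows were not searched.

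Per kilobase of annotated exon, the mean level over the 12 codes was highest for Cdkn1a (92.9 CPM per kb) and Ccng1 (80.9 CPM per kb). Bax followed at 42.5, Plk2 at 37.9, Phlda3 at 26.2, Mdm2 at 21.9, Trp53inp1 at 20.6 and Trp53 at 11.1 CPM per kb. Bbc3 and Trp53i11 were lowest, at 6.69 and 1.24 CPM per kb. Over codes, neighbours in this order overlapped, as Cdkn1a (52.8 to 191.7 CPM per kb) and Ccng1 (42.4 to 178.9 CPM per kb) did, except that the lowest Bbc3 code (4.91 CPM per kb) lay above the highest Trp53i11 code (3.40 CPM per kb). The spread between tumours also differed between genes. Plk2 varied 24.8-fold from its lowest to its highest tumour, Ccng1 19.6-fold and Cdkn1a 10.4-fold, whereas Trp53 varied 3.97-fold, Mdm2 2.68-fold and Bbc3 2.22-fold. Trp53i11 ran from 0 to 14.9 CPM.

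**Figure D1:**
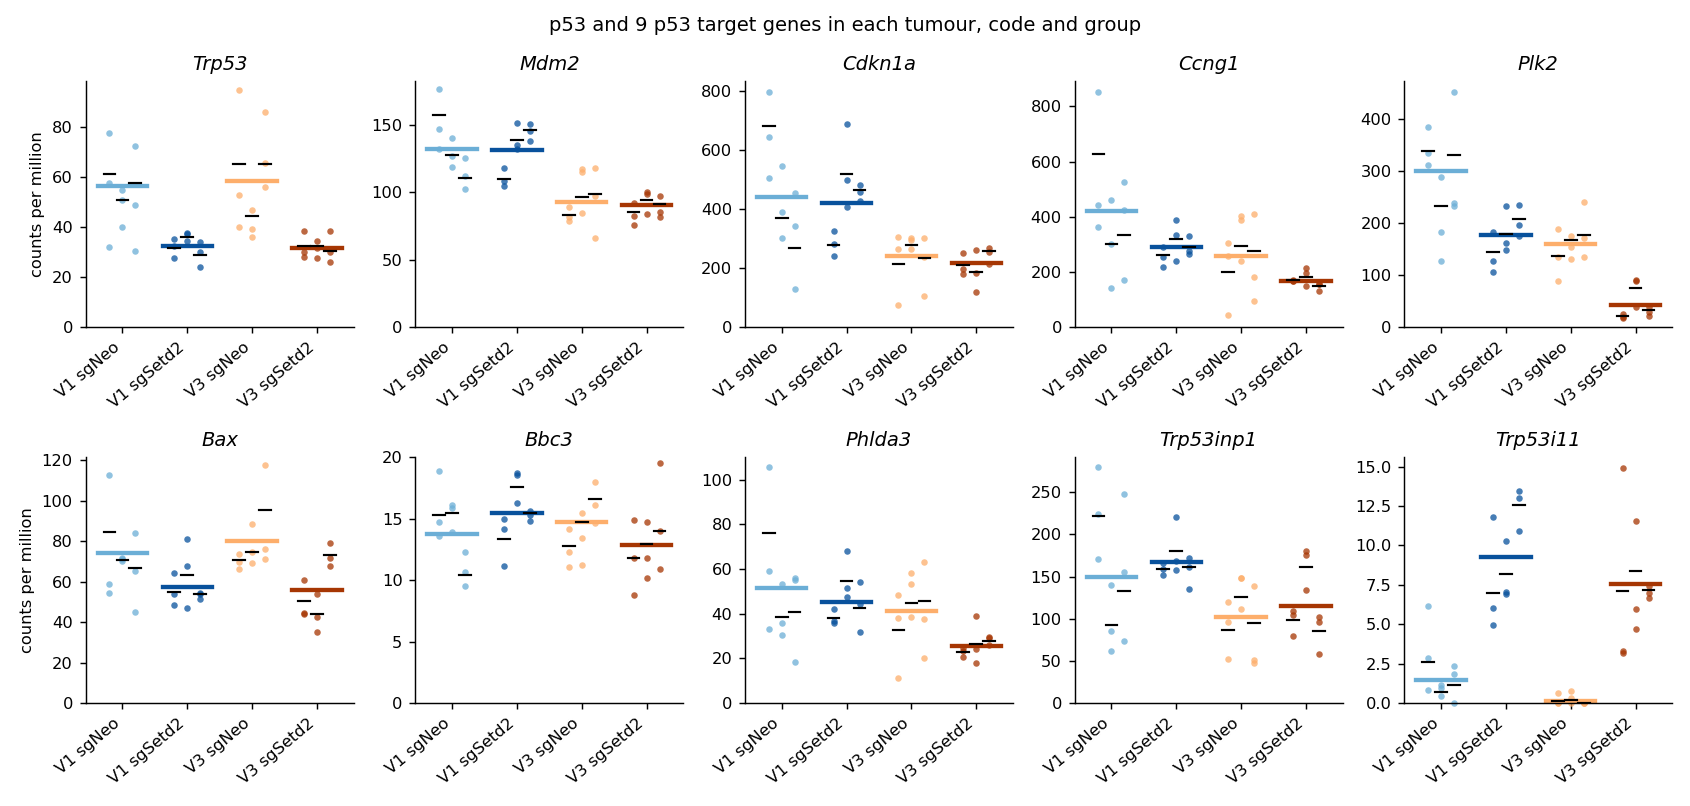
Level of each of the 10 genes in CPM (y axis, from 0) in the 4 groups (x axis, V1 and V3 for Variant 1 and Variant 3). Points are tumours, set apart by code, black ticks are the codes and coloured bars the means over 3 codes. Trp53 was lower and Trp53i11 higher in sgSetd2 than in sgNeo codes of both variants, while Mdm2 lay at 131.6 and 131.3 CPM in Variant 1 and at 92.7 and 90.2 CPM in Variant 3.

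The guide against Setd2 was compared with sgNeo within each variant and averaged over both, to see how Setd2 loss bears on these genes. Trp53 and Plk2 fell and Trp53i11 rose in the averaged contrast, while Mdm2, Cdkn1a, Ccng1, Bax, Bbc3, Phlda3 and Trp53inp1 did not pass. Over all genes tested 7.35% were called in the averaged contrast, so the 3 of 10 stand beside that share. In Variant 1, 1 member was called (Trp53, lower), where 1.42% of all genes were, and in Variant 3 3 members (Trp53 and Plk2 lower, Trp53i11 higher), where 1.49% were. The median log2 fold change of the 10 genes was -0.27 in the averaged contrast, against 0.01 over all genes. None of the 6 fibroblast markers passed in any contrast, and their median log2 fold change with the guide was -1.08 in Variant 1 and 2.59 in Variant 3. Their summed level had a median of 5.52 CPM in Variant 1 sgNeo tumours (0.535 to 380.5 CPM) and 24.1 CPM in sgSetd2 tumours (0.897 to 166.8 CPM), and of 8.99 CPM (1.64 to 35.9 CPM) and 43.4 CPM (7.73 to 96.1 CPM) in Variant 3. Without the 5 tumours of Col1a1 above 10 CPM, an alternative chosen after seeing the data, the averaged differences were -0.75 for Trp53 (edgeR adjusted p = 0.0029), -1.30 for Plk2 (adjusted p = 0.0178) and 4.22 for Trp53i11 (adjusted p = 0.00384). In sorted bulk samples, fewer cells that express a gene and less RNA per cell cannot be told apart.

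Trp53 (ENSMUSG00000059552.13, GRCm38 chromosome 11, 69580359 to 69591873, plus strand) stood at 61.4, 50.8 and 57.5 CPM in the Variant 1 sgNeo codes CE467, CE468 and CE472, and at 31.7, 36.3 and 29.1 CPM in the sgSetd2 codes CE475, CE479 and CE483. In Variant 3 it stood at 65.3, 44.5 and 65.1 CPM in the sgNeo codes CE428, CE429 and CE433, and at 32.4, 32.3 and 30.4 CPM in the sgSetd2 codes CE450, CE454 and CE456. All 6 sgSetd2 codes lay below all 6 sgNeo codes, and the sgSetd2 codes were close together. Tumours gave a lowest, median and highest value of 30.3, 50.9 and 77.9 CPM in Variant 1 sgNeo, 23.9, 34.0 and 37.5 CPM in Variant 1 sgSetd2, 36, 53 and 94.9 CPM in Variant 3 sgNeo and 26.1, 30.1 and 38.6 CPM in Variant 3 sgSetd2. Of the 18 sgNeo tumours, 15 lay above the highest sgSetd2 tumour. The log2 fold change came to -0.81 in Variant 1 (SE 0.16, adjusted p = 0.0329), -0.88 in Variant 3 (SE 0.16, adjusted p = 0.0213) and -0.84 averaged (SE 0.11, adjusted p = 0.00168), a level 1.79-fold lower. The difference between the variants' effects was -0.07 (95% interval -0.56 to 0.41).

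The calls of Trp53 in the single variants rested on few codes. In Variant 1 the call was lost on leaving out any of the codes CE467, CE468, CE472, CE475, CE483 and CE450, or tumour 1 of CE467, 1 of CE468, 2 of CE472, 1 or 3 of CE428, 2 of CE429 or 3 of CE433, with log2 fold changes of -0.88 to -0.66 and adjusted p of 0.0502 to 0.158. In Variant 3 it was lost without CE428, CE433, CE450, CE454 or CE456, or without tumour 2 of CE428 or 2 of CE429 (-0.89 to -0.73, adjusted p of 0.0525 to 0.09). Other settings ended single-variant calls too. The Variant 1 difference was -0.61 with limma on code means (adjusted p = 0.112), -0.69 with voom (adjusted p = 0.0531), -0.78 with a sex covariate (adjusted p = 0.0801), -0.27 with the cell cycle covariate (adjusted p = 1.0) and -0.65 without the tumours of high Col1a1 (edgeR adjusted p = 0.0706). The Variant 3 difference was -0.88 with only the 2 groups compared in the fit (adjusted p = 0.0806). The averaged call held in 48 of 48 fits with 1 code or 1 tumour left out. RNA of the pseudogene Trp53-ps, which could share reads with Trp53, was counted once in all 36 tumours.

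Trp53 levels moved with the cell cycle. Over the 36 tumours, with group means removed, its Pearson correlation with the mean log2(CPM + 1) of 26 cell cycle genes was 0.82, a description over tumours that share codes and libraries. Within the 18 sgNeo tumours it was 0.89 and within the 18 sgSetd2 tumours 0.43. The sgNeo tumours with the highest Trp53 levels were tumour 2 of CE428 (94.9 CPM), tumour 1 of CE433 (86.2 CPM), tumour 1 of CE467 (77.9 CPM) and tumour 2 of CE472 (72.3 CPM), and their cell cycle means were 5.28, 5.16, 5.34 and 5.50. The cell cycle mean exceeded 4.5 in 6 of 18 sgNeo tumours and in 1 of 18 sgSetd2 tumours. Without these 7 tumours the averaged Trp53 difference was -0.58 (edgeR adjusted p = 0.0128), the Variant 1 difference -0.50 (adjusted p = 0.254) and the Variant 3 difference -0.66 (adjusted p = 0.0529), an alternative chosen after seeing the data. With the cell cycle mean as a covariate the averaged difference was -0.51 (adjusted p = 0.445), in a fit that called 13 of 20009 genes in place of 1471. In Variant 3 the covariate gave -0.74, just under the limit (edgeR adjusted p = 0.0496), where 102 genes were called higher and 78 lower.

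**Figure D2:**
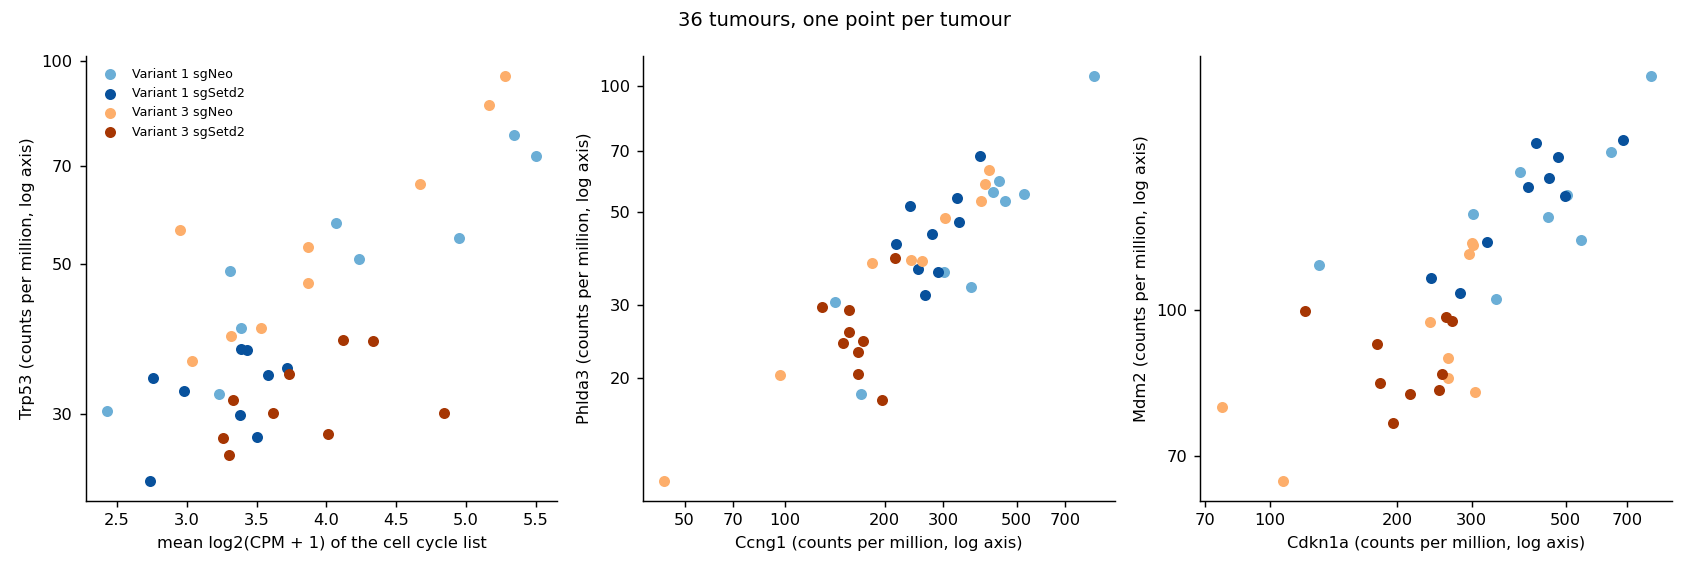
Each point is 1 of 36 tumours, coloured by group, with CPM on log axes. Left, Trp53 against the mean log2(CPM + 1) of 26 cell cycle genes (linear x axis): sgNeo tumours above a mean of 4.5 reached 94.9 CPM, and sgSetd2 tumours did not exceed 38.6 CPM. Centre, Phlda3 against Ccng1 (r = 0.88 with group means removed), and right, Mdm2 against Cdkn1a (r = 0.63).

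Mdm2 (ENSMUSG00000020184.14, chromosome 10), the ubiquitin ligase that marks p53 for degradation and is induced by it, stood at 157, 127 and 110 CPM in CE467, CE468 and CE472, and at 110, 138 and 146 CPM in CE475, CE479 and CE483. The Variant 3 codes gave 82.8, 96.3 and 98.8 CPM in CE428, CE429 and CE433 and 85.3, 93.9 and 91.4 CPM in CE450, CE454 and CE456. The guides overlapped in both variants. The averaged log2 fold change came to -0.02 (SE 0.11, 95% interval -0.26 to 0.21, adjusted p = 0.941), an interval that excludes a change as large as that of Trp53. Its sign turned on leaving out CE467, CE475, tumour 1 of CE467 or tumour 3 of CE433 (0.01 to 0.06).

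Among the genes of cell cycle arrest, Cdkn1a (ENSMUSG00000023067.13, chromosome 17), the p21 inhibitor of cyclin-dependent kinases, stood at 681, 368 and 268 CPM in CE467, CE468 and CE472 and at 279, 518 and 465 CPM in CE475, CE479 and CE483. Cdkn1a in Variant 3 stood at 214, 279 and 234 CPM in CE428, CE429 and CE433 and at 210, 188 and 256 CPM in CE450, CE454 and CE456. The guides overlapped, and CE467 lay far above the other codes of its group. The averaged log2 fold change came to -0.11 (SE 0.22, 95% interval -0.60 to 0.38, adjusted p = 0.835), and 0.13 without CE467. The first Cdkn1a promoter window holds 2 half-sites, and Cdkn1a exons overlap those of the antisense gene AC167363.2, whose reads could not be told apart without strand.

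Ccng1 (ENSMUSG00000020326.7, chromosome 11), the cyclin G1 gene, whose product recruits a phosphatase to Mdm2, stood at 628, 303 and 333 CPM in the Variant 1 sgNeo codes in the order given above, and at 261, 320 and 291 CPM in the sgSetd2 codes. Variant 3 codes held 200, 296 and 275 CPM with sgNeo and 170, 183 and 149 CPM with sgSetd2. The guides overlapped in Variant 1 and did not in Variant 3. The averaged log2 fold change came to -0.58 (SE 0.18, adjusted p = 0.0739). It passed without the 7 tumours of high cell cycle mean (-0.72, adjusted p = 0.0207), without tumour 4 of CE468 (-0.60, adjusted p = 0.0483) or without tumour 2 of CE428 (-0.66, adjusted p = 0.0417), and also with DESeq2 (-0.57, adjusted p = 0.0189). Without CE467 it was -0.37 (edgeR adjusted p = 0.108).

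Plk2 (ENSMUSG00000021701.7, chromosome 13, 110395046 to 110400844, plus strand) encodes a polo-like kinase that acts at centrioles and in stress responses. It stood at 338, 233 and 331 CPM in the Variant 1 sgNeo codes and at 144, 178 and 208 CPM in the sgSetd2 codes. In Variant 3 it stood at 136.6, 166.8 and 176.0 CPM in sgNeo and at 21.5, 76.3 and 33.1 CPM in CE450, CE454 and CE456. The guides did not overlap in either variant, and CE454 was the highest of the Variant 3 sgSetd2 codes. Tumours of that group gave 18.2, 28.6 and 89.9 CPM (lowest, median and highest), and 8 of 9 Variant 3 sgNeo tumours, from 88.9 to 239.3 CPM with a median of 154.1 CPM, lay above all of them. The log2 fold change came to -1.87 in Variant 3 (SE 0.38, adjusted p = 0.0356, 3.66-fold lower), -0.77 in Variant 1 (SE 0.37, adjusted p = 0.338) and -1.32 averaged (SE 0.26, adjusted p = 0.0129).

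The Variant 3 call of Plk2 was lost without any of the codes CE472, CE475, CE428, CE429, CE433, CE450 and CE456, or without tumour 1 of CE468, 2 of CE428 or 3 of CE454 (-1.97 to -1.54, adjusted p of 0.052 to 0.108). It was also lost with no low-count filter (-1.87, adjusted p = 0.0571), with only the 2 groups compared in the fit (-1.88, adjusted p = 0.106), without the tumours of high Col1a1 (-1.72, adjusted p = 0.0591) and without those of high cell cycle mean (-1.78, adjusted p = 0.104). The averaged call held in 48 of 48 fits with 1 code or tumour left out. It was lost without the 7 tumours of high cell cycle mean (-1.14, edgeR adjusted p = 0.0805), where 209 genes were called higher and 129 lower. With the cell cycle covariate the difference was larger, at -2.27, and was not called (edgeR adjusted p = 0.106). That fit called 10 genes higher and 3 lower, and the main fit 745 and 726. Within the 18 sgNeo tumours the correlation of Plk2 with the cell cycle mean was 0.40, and within the 18 sgSetd2 tumours -0.57, values given as a description. No other polo-like kinase passed. Plk4, which drives centriole duplication, gave an averaged log2 fold change of -0.60 (adjusted p = 0.171), the mitotic kinase Plk1 -0.67 (adjusted p = 0.299) and Plk3 0.12 (adjusted p = 0.871).

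Of the genes of cell death, Bax (ENSMUSG00000003873.11, chromosome 7), which permeabilises the outer mitochondrial membrane, stood at 84.8, 71.0 and 66.6 CPM in the Variant 1 sgNeo codes and at 54.7, 63.6 and 54.0 CPM in the sgSetd2 codes. Levels in Variant 3 were 70.7, 74.7 and 95.6 CPM in sgNeo and 50.2, 44.0 and 73.4 CPM in sgSetd2. The guides did not overlap in Variant 1 and overlapped in Variant 3 through CE456. The averaged log2 fold change came to -0.45 (SE 0.14, adjusted p = 0.0702), and it passed without CE456 (-0.57, adjusted p = 0.0153) or without tumour 4 of CE479 (-0.48, adjusted p = 0.0455). Bax exons overlap those of the protein-coding gene Gm45808 on the same strand, which was listed with 0 counts against 115434 for Bax. Bbc3 (ENSMUSG00000002083.13, chromosome 7), whose product Puma binds anti-apoptotic Bcl-2 proteins, had group means of 13.8 ± 2.88, 15.5 ± 2.12, 14.7 ± 1.90 and 12.9 ± 1.11 CPM in Variant 1 sgNeo, Variant 1 sgSetd2, Variant 3 sgNeo and Variant 3 sgSetd2. All 4 groups overlapped over codes, and the averaged difference was -0.01 (SE 0.14, 95% interval -0.30 to 0.29, adjusted p = 0.983).

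Phlda3 (ENSMUSG00000041801.5, chromosome 1), which restrains Akt at the membrane, stood at 75.9, 38.4 and 40.6 CPM in the Variant 1 sgNeo codes and at 37.9, 54.8 and 42.7 CPM in the sgSetd2 codes. Variant 3 gave 32.7, 44.9 and 45.7 CPM in sgNeo and 23.0, 26.5 and 27.5 CPM in sgSetd2. The guides overlapped in Variant 1 and not in Variant 3, where the log2 fold change came to -0.68 (SE 0.25, adjusted p = 0.232). The averaged difference of -0.44 (SE 0.18, adjusted p = 0.169) did not pass either, and it was -0.24 without CE467 (adjusted p = 0.316) and -0.28 without tumour 1 of CE467. Without the 7 tumours of high cell cycle mean the Variant 3 difference was -1.02 (adjusted p = 0.043) for Phlda3 and -1.01 (adjusted p = 0.0418) for Ccng1.

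Trp53inp1 (ENSMUSG00000028211.11, chromosome 4), a stress protein with roles in autophagy and p53 phosphorylation, stood at 222, 92.2 and 133 CPM in the Variant 1 sgNeo codes and at 160, 180 and 161 CPM in the sgSetd2 codes. The corresponding Variant 3 levels were 86.1, 126 and 94.5 CPM in sgNeo and 99.0, 161 and 85.7 CPM in sgSetd2. The guides overlapped in both variants. The averaged log2 fold change came to 0.17 (SE 0.22, adjusted p = 0.712), and -0.07 without the 7 tumours of high cell cycle mean.

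Trp53i11 (ENSMUSG00000068735.14, chromosome 2, 93187548 to 93201759, plus strand), also called Pig11 and described as a p53-induced gene, was the only member that rose. It stood at 2.59, 0.695 and 1.15 CPM in the Variant 1 sgNeo codes and at 6.98, 8.18 and 12.5 CPM in the sgSetd2 codes. In Variant 3 it stood at 0.156, 0.164 and 0 CPM in CE428, CE429 and CE433, from 17, 35 and 0 counts, and at 7.08, 8.36 and 7.18 CPM in the sgSetd2 codes, from 953, 1661 and 1493 counts. All 6 sgSetd2 codes lay above all 6 sgNeo codes, and 17 of 18 sgNeo tumours lay below the lowest sgSetd2 tumour (3.15 CPM). The exception was tumour 3 of CE467, at 6.17 CPM.

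The log2 fold change of Trp53i11 was 6.14 in Variant 3 (SE 0.99, adjusted p = 0.0132), 2.64 in Variant 1 (SE 0.83, adjusted p = 0.144) and 4.39 averaged (SE 0.64, adjusted p = 0.00288). The Variant 3 call was lost without CE428 (6.46, adjusted p = 0.0616) and with only the 2 groups compared in the fit (6.14, adjusted p = 0.0559). The Variant 1 difference passed without CE433 (2.64, adjusted p = 0.029) and with DESeq2 (2.66, adjusted p = 0.00411), and the averaged call held in 48 of 48 fits with 1 code or tumour left out. With the cell cycle covariate the averaged call was lost (4.04, edgeR adjusted p = 0.22), in a fit that called 10 genes higher and 3 lower. Summed levels of 6 airway (club and ciliated) markers moved with the guide as well: they were 16.8 to 214.3 CPM in Variant 1 sgNeo tumours and 167.5 to 860.1 CPM in sgSetd2 tumours, and 10.4 to 29.2 and 49.7 to 359.3 CPM in Variant 3. Their part in the Trp53i11 result was not tested.

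**Figure D3:**
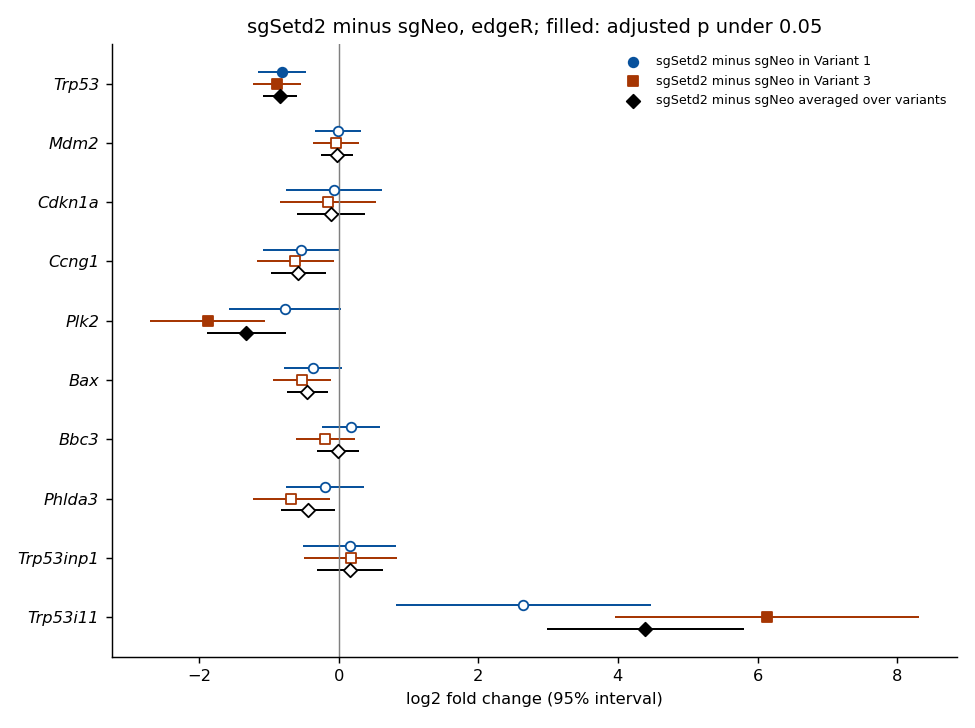
Log2 fold change of sgSetd2 against sgNeo (x axis) for the 10 genes, with 95% intervals, in Variant 1 (circles), Variant 3 (squares) and averaged (diamonds). Filled symbols have an edgeR adjusted p under 0.05: Trp53 in all 3 contrasts, and Plk2 and Trp53i11 in Variant 3 and averaged.

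By the overlap of codes alone, 4 of 10 members were apart between the guides in Variant 1 (Trp53, Plk2 and Bax lower, Trp53i11 higher), where 24.0% of all genes were. In Variant 3, 5 of 10 were apart (Trp53, Plk2, Ccng1 and Phlda3 lower, Trp53i11 higher), where 19.0% were, and with all 12 codes 2 of 10 (Trp53 and Trp53i11), where 4.27% were.

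No member passed the interaction, which asks whether the effect of the guide differed between variants, nor did any other gene (edgeR, 0.0% of 20009 genes called). At an unadjusted p under 0.05 it was 1 member, Trp53i11 (3.49, SE 1.16, adjusted p = 0.70), beside 1200 of the 20009 genes. Plk2 gave -1.11 (SE 0.52, unadjusted p = 0.054, adjusted p = 0.824). DESeq2 also called no member, while it called 50 genes higher and 64 lower.

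The variants were compared within each guide, to see whether the form of the fusion goes with a different p53 target level. Mdm2, Cdkn1a, Ccng1, Plk2, Phlda3 and Trp53inp1 had lower values in Variant 3 than in Variant 1 with either guide, but no member passed edgeR's test in either contrast. In sgNeo 7 of 10 log2 fold changes were below 0, with a median of -0.53 against -0.02 over all genes, and in sgSetd2 all 10 were, with a median of -0.54 against 0.03. An unadjusted p under 0.05 was reached by 5 members in sgNeo and by 5 in sgSetd2, and by 2080 and 1940 of the 20009 genes tested. Over all genes 0.005% were called in sgNeo and 0.13% in sgSetd2, so few genes of any kind passed there. DESeq2 called Trp53i11 in sgNeo and Mdm2 and Plk2 in sgSetd2. Over all 20009 genes it called 145 higher and 247 lower in sgNeo, and 165 and 320 in sgSetd2.

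Trp53 itself showed little difference between variants: 0.05 in sgNeo (95% interval -0.30 to 0.39) and -0.03 in sgSetd2 (95% interval -0.37 to 0.31). Mdm2 was lower in Variant 3 by the code values given above, without overlap, with log2 fold changes of -0.51 in sgNeo (SE 0.15, adjusted p = 0.341) and -0.54 in sgSetd2 (SE 0.15, adjusted p = 0.249). Cdkn1a gave -0.86 (SE 0.32, adjusted p = 0.406) and -0.95 (SE 0.32, adjusted p = 0.356), without overlap in sgSetd2 only. Ccng1 gave -0.71 and -0.80 (adjusted p = 0.399 and 0.325), and its codes did not overlap with either guide. Without CE467 the sgNeo differences were -0.38 for Cdkn1a (adjusted p = 0.747) and -0.29 for Ccng1 (adjusted p = 0.72), and without tumour 1 of CE467 Ccng1 gave -0.43. Plk2 gave -0.91 (SE 0.37, adjusted p = 0.422) and -2.02 (SE 0.38, adjusted p = 0.0786), also without overlap, and the sgSetd2 difference passed without CE454 (-2.69, adjusted p = 0.00508) or without tumour 4 of CE454 (-2.18, adjusted p = 0.0317). Phlda3 gave -0.33 and -0.81, and Trp53inp1 -0.55 and -0.53.

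Bax, at 0.12 and -0.04, and Bbc3, at 0.10 and -0.27, lay near 0. Trp53i11 differed by -3.79 in sgNeo (SE 0.90, adjusted p = 0.277), where the Variant 3 level rested on 52 counts, and by -0.29 in sgSetd2. In all, 4 of 10 members did not overlap between variants in sgNeo (Mdm2, Plk2, Ccng1 and Trp53i11, all lower in Variant 3), where 15.0% of all genes did not. In sgSetd2 it was 5 of 10 (Cdkn1a, Mdm2, Plk2, Ccng1 and Phlda3, all lower), where 16.7% did not. Codes with the Y-linked gene Ddx3y above 50 CPM numbered 0 (Variant 1) and 2 (Variant 3) of 3 with sgNeo, and 1 and 1 of 3 with sgSetd2, so sex was unbalanced between the variants in sgNeo. Without the 7 tumours of high cell cycle mean the sgNeo difference of Ccng1 was -0.23 (adjusted p = 0.788), and that of Plk2 -0.75.

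**Figure D4:**
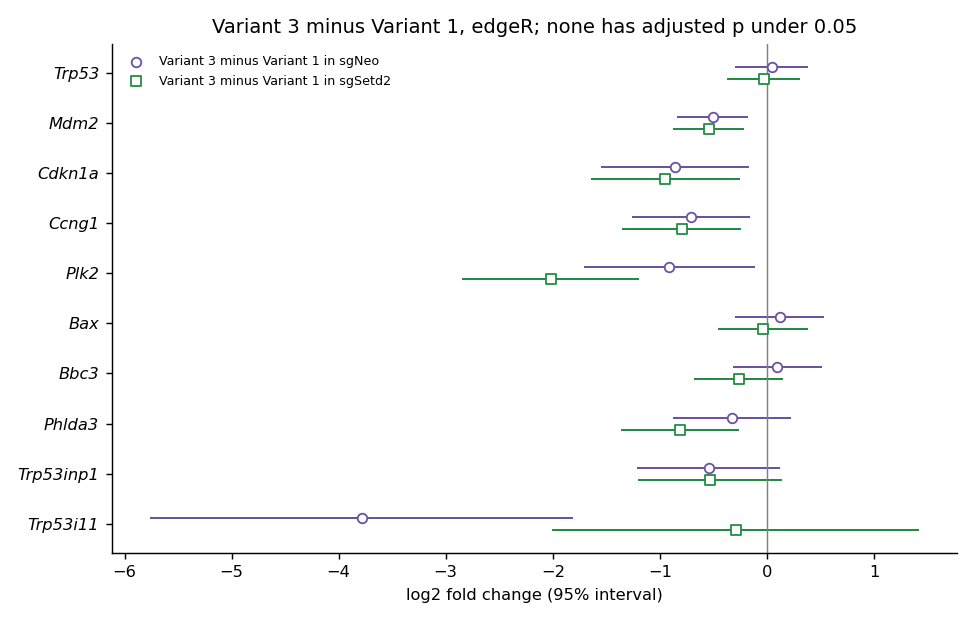
Log2 fold change of Variant 3 against Variant 1 (x axis) for the 10 genes, with 95% intervals, in sgNeo (circles) and sgSetd2 (squares). Open symbols show that none had an edgeR adjusted p under 0.05. Mdm2, Cdkn1a, Ccng1 and Plk2 have intervals wholly below 0 with both guides, and those of Trp53 lie on either side of 0.

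Several targets varied together from tumour to tumour within a group. With group means removed, the Pearson correlation over the 36 tumours was 0.88 between Ccng1 and Phlda3, 0.82 between Cdkn1a and Phlda3, 0.78 between Ccng1 and Trp53inp1 and 0.63 between Cdkn1a and Mdm2. Plk2 had lower values with these genes, at -0.03 with Cdkn1a, 0.04 with Ccng1, 0.03 with Phlda3, 0.24 with Trp53inp1 and 0.29 with Mdm2. Bbc3 ranged from -0.14 with Trp53inp1 and 0.05 with Ccng1 to 0.40 with Cdkn1a and 0.42 with Bax. Bax itself stood at 0.55 with Cdkn1a and 0.59 with Phlda3, and at 0.05 with Trp53inp1. Trp53 had negative correlations with 6 of the 9 targets, from -0.52 with Trp53inp1 and -0.46 with Ccng1 to -0.21 with Mdm2, and positive ones with Plk2 (0.22), Bbc3 (0.22) and Bax (0.12). These values describe tumours that share codes, and they carry no test.

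Single tumours show the range. Tumour 2 of CE428, the highest in Trp53 at 94.9 CPM, was the lowest of all 36 in Cdkn1a (77.0 CPM), Ccng1 (43.5 CPM) and Phlda3 (11.4 CPM), and its Mdm2 level was 79.0 CPM. Tumour 2 of CE433 and tumour 2 of CE472 were also high in Trp53 (65.9 and 72.3 CPM) and low in Cdkn1a (107 and 131 CPM) and Phlda3 (20.3 and 18.4 CPM). Tumour 1 of CE433, the next highest in Trp53 at 86.2 CPM, lay near the medians of its group in Cdkn1a (238.8 against 264.0 CPM) and Phlda3 (37.7 against 38.4 CPM). Tumour 1 of CE467 differed: it was high in Trp53 (77.9 CPM) and the highest of all 36 in Cdkn1a (796 CPM), Ccng1 (852 CPM), Mdm2 (177 CPM) and Phlda3 (105.5 CPM). That tumour also stood apart in its markers, with the lowest summed alveolar type 2 level (27770 CPM) and a summed fibroblast level of 380.5 CPM, and their part in its p53 target levels was not tested. Within the 18 sgNeo tumours the correlation with the cell cycle mean was -0.72 for Trp53inp1, -0.58 for Ccng1, -0.54 for Phlda3 and -0.51 for Cdkn1a, and within the 18 sgSetd2 tumours it was -0.14, -0.15, -0.14 and -0.003.

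Over the 12 codes, among 9902 genes of at least 5 CPM, the gene most like Cdkn1a in log2-CPM was Mdm2 (r = 0.94), followed by Perp, one of the listed genes of cell death (0.91), Rflnb (0.89), Dnajc21 (0.87) and Itgb6 (0.87). Those most like Trp53 were Larp1 (0.96), Cnpy2 (0.95), Wdr12 (0.95), Hmgn5 (0.94) and Fbl (0.94). Those most like Plk2 were Galnt18 (0.96), Cd83, Ldhb, Scara5 and Gdnf (each 0.94), and those most like Trp53i11 were Cdkl2 (0.94), Atp10a (0.94), Donson, Tcp11l2 and Cfap69 (each 0.92). The codes share group and library, so these correlations carry group differences and no p-value.

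Beyond the 10 members, 48 other genes listed as p53 targets or genes of cell death were read, of which 47 were tested. The list of cell death also held the anti-apoptotic genes Bcl2, Bcl2l1 and Mcl1, so its counts and medians are not those of p53-induced genes alone. In the averaged contrast 5 rose and 5 fell, with a median of -0.07 against 0.01 over all genes, where 7.35% of genes were called. In each single variant 1 rose (Arap2) and 1 fell (Ak1), and no other gene of the 48 passed there.

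Of the 20 targets of repair, metabolism and signalling, 4 rose and 3 fell in the averaged contrast. Ak1, an adenylate kinase that balances adenine nucleotides, stood at 133.8 ± 54.7 CPM in Variant 1 sgNeo and 31.1 ± 5.54 CPM in sgSetd2, and at 110.0 ± 30.1 and 9.81 ± 1.56 CPM in Variant 3. Its log2 fold change came to -2.11 in Variant 1 (edgeR adjusted p = 0.0142) and -3.49 in Variant 3 (adjusted p = 0.0009). Arap2, a regulator of small GTPases, rose from 11.4 ± 3.16 to 25.9 ± 2.79 CPM in Variant 1 (1.18, adjusted p = 0.0245) and from 8.55 ± 1.66 to 26.4 ± 0.37 CPM in Variant 3 (1.63, adjusted p = 0.0062). In the averaged contrast Kank3 rose by 0.88 (adjusted p = 0.00806) and Dglucy, a mitochondrial D-glutamate cyclase, fell by 1.06 (adjusted p = 0.016). Gdf15, a secreted stress cytokine, fell by 1.66 (adjusted p = 0.0235), Tap1, a peptide transporter of antigen presentation, rose by 0.90 (adjusted p = 0.0228) and Ddit4, an inhibitor of mTORC1, rose by 0.45 (adjusted p = 0.0453). These 3 were named after their values were seen.

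Of the 10 other arrest targets 9 were tested and 1 passed: Rprm (Reprimo), which holds cells in G2, fell by 1.03 in the averaged contrast (edgeR adjusted p = 0.0257). Of the 18 listed genes of cell death 1 rose and 1 fell. Pidd1, a scaffold for caspase activation, fell by 0.88 (adjusted p = 0.0448), from 4.64 ± 0.71 to 2.05 ± 0.68 CPM in Variant 1 and from 4.23 ± 0.69 to 2.81 ± 0.70 CPM in Variant 3. Pmaip1 (Noxa), a BH3-only death protein, passed in the averaged contrast (adjusted p = 0.0422). It had 0 counts in all 9 Variant 3 sgNeo tumours and 2.53 ± 1.1 CPM in Variant 3 sgSetd2, at least 407-fold higher when the empty group is set at 3 counts in all. In Variant 1 it stood at 1.60 ± 2.18 and 5.88 ± 8.0 CPM, with a spread larger than the difference.

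Of 20 regulators of p53, 1 passed, in Variant 3: Ppm1d (Wip1), a phosphatase that opposes p53 and is itself induced by it, rose from 47.5 ± 6.12 to 72.3 ± 4.27 CPM (0.60, edgeR adjusted p = 0.0488), while it gave -0.07 in Variant 1. Cdkn2a, whose Arf product inhibits Mdm2, stood at 1.59 ± 0.87 and 0.45 ± 0.32 CPM in Variant 1 and at 1.13 ± 0.39 and 0.28 ± 0.24 CPM in Variant 3, and its averaged difference of -1.91 did not pass (adjusted p = 0.0645). The p53 relative Trp73 stayed at or under a mean of 0.88 CPM in every group.

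The 26 cell cycle genes give the setting of these values. In Variant 1, 5 fell with the guide against Setd2 and none rose, with Ccna2 at 18.6 ± 2.34 and 3.53 ± 0.92 CPM (-2.40, edgeR adjusted p = 0.0195) and the helicase subunit Mcm7 at 54.5 ± 6.96 and 30.2 ± 5.36 CPM (-0.85, adjusted p = 0.0299). Cdk1 (-2.30) and Bub1 (-2.40) fell too. Over all genes 1.42% were called in Variant 1. In Variant 3 none of the list passed, and its median was -0.29 there against -1.48 in Variant 1. In the averaged contrast 6 fell and none rose, with a median of -0.89, where 7.35% of all genes were called. None of the 26 passed the interaction, so a difference between the variants in this list was not called.

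**Figure D5:**
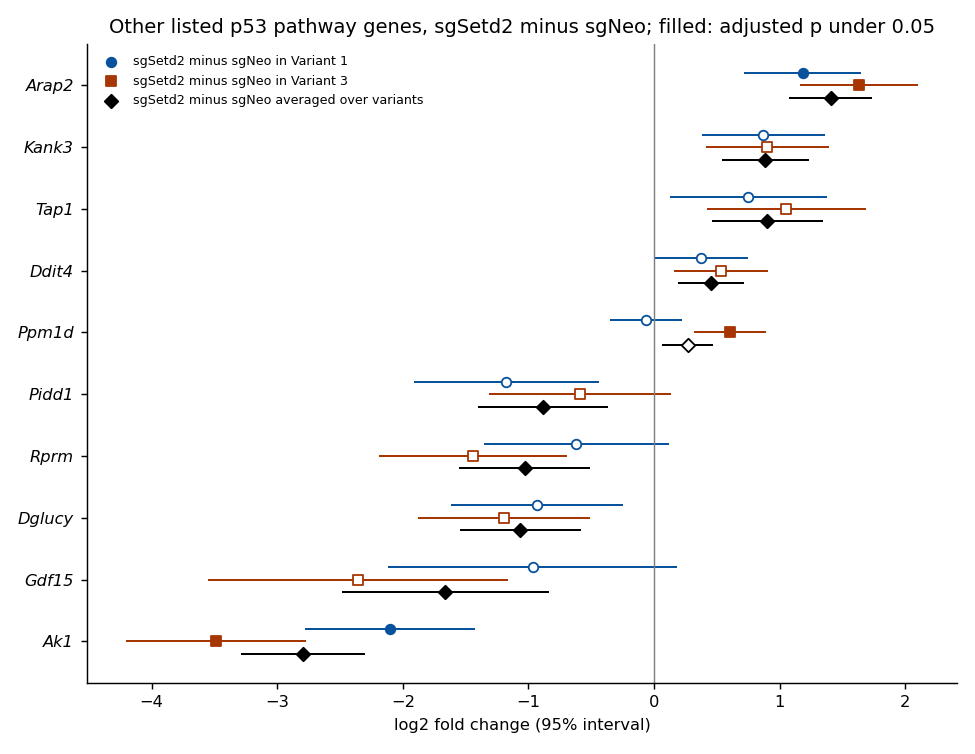
Log2 fold change of sgSetd2 against sgNeo (x axis) with 95% intervals for 10 other genes of the p53 pathway that passed in at least 1 contrast, in Variant 1 (circles), Variant 3 (squares) and averaged (diamonds). Filled symbols have an edgeR adjusted p under 0.05, which Ak1 (lower) and Arap2 (higher) reached in both variants.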

How the data were processed

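Per the labels, RNA of sorted cells was extracted with the PicoPure kit and made into SMART-Seq mRNA libraries. The deposited file is a raw count table with a column per tumour. STAR 2.5.3a, R 4.2 and DESeq2 1.38.3 appear in the submitters' processing notes. The counting tool, strand setting and genome build were not given in the sources used here. Symbols and coordinates were taken from GENCODE mouse release M21 (GRCm38), which matched 49326 of 49585 identifiers.

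Tumours were summed by code, and a single edgeR 4.0.16 model (R 4.3.3; filterByExpr, TMM, robust glmQLFit, glmQLFTest) covered the 12 sums. SEs were derived from the F statistic (log2 fold change over its square root, without sign), and 95% intervals from the SEs. In simulated data for Variant 1 (20009 genes, of which 200 were changed between the guides) 34% of 2-fold and 71% of 4-fold changes were found, with 2 false calls. The changed genes were drawn only from those above a limit on mean count, so these shares do not cover genes of low counts. All other genes were simulated without group differences. Other settings tried were RLE or upper-quartile scaling, no filter or 1 CPM in 6 codes, DESeq2 1.42.0, edgeR on the 36 tumours, limma 3.58.1 on code means and with voom, only the groups compared, the cell cycle list or sex as a covariate, and leaving out codes, tumours or the 5 tumours with Col1a1 above 10 CPM. Correlations over the 12 codes used log2-CPM with a prior count of 2, and those between members over the 36 tumours log2(CPM + 1) with group means removed.

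The 10 members, the gene lists and most alternatives were chosen with earlier results of these data known. Named genes were Setd2, the members, up to 4 genes per list and contrast that passed (the 2 of smallest p where none did), and the 5 genes most like Trp53, Cdkn1a, Plk2 and Trp53i11 over the codes. All libraries differed from each other. Batches or dates are not stated in the labels, and none could be tested.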

Additional observations from a re-analysis of the deposited data

Results flagged for a closer look

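In 40 checks (10 genes in 4 groups of 9 tumours), 4 tumours lay far from the other 8 of their group, by a gap to the nearest value over 0.493 of the group's range. Chance gives about 1 in 20 such checks for independent values of a normal distribution. CPM of tumours that share codes need not be of that kind, so the rate for these checks is not known. All 4 were the highest values of their group. Phlda3 was 105.5 CPM in tumour 1 of CE467 (Variant 1 sgNeo), where the others lay between 18.4 and 59.2 CPM. Trp53i11 was 6.17 CPM in tumour 3 of CE467 (Variant 1 sgNeo), where the others lay between 0 and 2.86 CPM. Trp53inp1 was 220.7 CPM in tumour 4 of CE479 (Variant 1 sgSetd2), where the others lay between 135.1 and 171.8 CPM. Bax was 117.7 CPM in tumour 3 of CE433 (Variant 3 sgNeo), where the others lay between 66.4 and 88.5 CPM. Of these, tumour 1 of CE467 was also the highest of all 36 tumours in Cdkn1a, Ccng1 and Mdm2.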

How the results depend on the processing

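With 1 code or tumour left out (48 fits), the number of members called was 0 to 2 for sgSetd2 against sgNeo in Variant 1 (main value 1), 0 to 3 in Variant 3 (main value 3), 3 to 4 averaged (main value 3), 0 between variants in sgNeo, 0 to 1 in sgSetd2 and 0 for the interaction. In Variant 1 it was 2 with DESeq2, which called 748 of 20009 genes higher and 752 lower, against 140 and 144 in the main fit. It was 0 with the cell cycle covariate (0 genes called higher and 0 lower) and with the sex covariate (49 and 53). It was also 0 without the 5 tumours of high Col1a1 (206 and 180) and without the 7 tumours of high cell cycle mean (5 and 1). In Variant 3 it was 0 with only the groups compared, a fit that called 86 of 18319 genes higher and 86 lower. In the averaged contrast it was 5 with DESeq2 and with edgeR on the 36 tumours (Bax and Ccng1 added). Those fits called more of all genes too: 1537 higher and 1371 lower of 20009, and 1340 and 1366 of 16315. The main fit called 745 and 726 of 20009. Fitting edgeR on the tumours takes those of a code as independent. With the cell cycle covariate the number was 0, in a fit that called 13 of 20009 genes. Between variants in sgNeo it was 1 with DESeq2 (145 genes called higher and 247 lower) and 2 with edgeR on the tumours (48 and 92). In sgSetd2 it was 1 with the stricter filter (8 and 42) and with limma on code means (6 and 45). It was 2 there with DESeq2 (165 and 320) and with voom (93 and 163), and 3 with edgeR on the tumours (200 and 279). For all of these the cause was not tested. Among the values of single genes that were recomputed (single-variant and between-variant values of some members were not), signs turned for these averaged values, none of them called: Trp53inp1 to -0.16 with the cell cycle covariate and -0.07 without tumours of high cell cycle mean, Bbc3 to 0.02 with edgeR on the tumours and with limma on code means, and to 0.01 with voom. On leaving out 1 code or tumour Bbc3 ranged from -0.09 to 0.06 (turned values 0.01, 0.02, 0.03, 0.04 and 0.06), Mdm2 from -0.08 to 0.06 (turned 0.01, 0.03, 0.04 and 0.06) and Cdkn1a from -0.23 to 0.13 (turned without CE467). Over all 60 alternatives the averaged Trp53 difference ran from -0.92 to -0.51 (called in 59), Plk2 from -2.27 to -1.14 (called in 58) and Trp53i11 from 3.86 to 5.71 (called in 59). No paired analysis was possible because the groups share no codes. Depth limits mainly Trp53i11, whose Variant 3 sgNeo level rests on 52 counts. Each group has only 3 codes, and tumours of a code may not be independent.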
